A study of Bos taurus with 6 samples.

Results

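GATA6, DAB2 and FN1 are genes of the primitive endoderm, also called the hypoblast, and their transcripts were measured in whole day-7 bovine blastocysts. Every probe set whose platform annotation carries the symbol of one of these genes was taken, on all 6 arrays. This gave 5 probe sets for the 3 genes, with 1 for GATA6 and 2 each for DAB2 and FN1, out of 24128 probe sets and 9155 named genes on the array.

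The superovulated group held 3 arrays of blastocysts that stayed until day 7 in heifers given superovulation treatment and artificial insemination. The synchronized group held 3 arrays of embryos that also came from superovulated and inseminated Simmental heifers, but that were flushed on day 2 at the 2-cell stage and transferred endoscopically to heifers that had been synchronized without ovarian stimulation, where they grew until day 7. Donor superovulation was therefore common to both groups, whereas flushing and transfer were done in the synchronized group alone, so the tract and the handling cannot be told apart. The number of blastocysts per array and the number of animals behind the arrays of a group are not given in the sources used here, so the p-values rest on array-to-array spread that may be technical.

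In the blastocyst the inner cell mass divides into the epiblast, which forms the embryo proper, and the primitive endoderm, which lines the blastocoel and later contributes to the yolk sac. GATA6 is the transcription factor that specifies primitive endoderm. In mouse embryos it first overlaps with the epiblast factor NANOG, and FGF signalling through MAP kinase favours GATA6. DAB2 is an endocytic adaptor that links cargo receptors to clathrin, and in the mouse it acts in the visceral endoderm. FN1 is fibronectin, a matrix glycoprotein bound by integrins and laid down in early basement membranes. None of these genes is restricted to primitive endoderm, since fibronectin is made by many cell types and DAB2 also by trophoblast.

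All 3 genes read higher on every array from superovulated heifers than on any synchronized array. The log2 differences, superovulated minus synchronized, were 2.12 for GATA6, 2.21 for DAB2 and 2.23 for FN1. Each was taken on the probe set of the gene with the highest mean over the 6 arrays. For DAB2 that set led only through the superovulated arrays, as the other DAB2 set read higher on every synchronized array. The choice of the DAB2 set was thus not independent of the difference tested. Only the DAB2 difference passed limma's moderated test with Benjamini-Hochberg adjustment over the 24016 tested probe sets, at adjusted p = 0.0387. GATA6 had adjusted p = 0.141 and FN1 adjusted p = 0.182. At an adjusted p below 0.05, 0.695% of all probe sets were called higher, and on 5.42% every superovulated array lay above every synchronized array. Of the 1406 bright probe sets, defined by a 6-array mean over log2 4, 42.5% had that separation, so separation of the groups was frequent at the brightness of GATA6 and FN1.

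GATA6, the lineage-specifying transcription factor, was measured by a single probe set. Its log2 values were 6.94, 7.00 and 6.41 on superovulated arrays 1 to 3, against 3.95, 5.21 and 4.83 on synchronized arrays 1 to 3. The superovulated arrays lay close together and the lowest of them was 1.20 above the highest synchronized array. The means were 6.78 ± 0.32 in the superovulated group and 4.66 ± 0.65 in the synchronized group (SD, n = 3 each). The difference of 2.12 had a 95% interval of 1.15 to 3.09 in limma, which is a 4.35-fold higher signal with an interval of 2.22 to 8.50. GATA6 was brighter than 99.15%, 99.01% and 98.45% of the tested probe sets on the superovulated arrays and than 95.57%, 96.72% and 97.73% on the synchronized arrays. It thus stood in the upper part of both groups' signals, with synchronized array 1 the lowest and the only array below log2 4.

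DAB2, the endocytic adaptor, was bright on one of its probe sets. That set read 4.87, 5.02 and 4.85 on superovulated arrays 1 to 3, against 2.32, 2.66 and 3.14 on synchronized arrays 1 to 3. The superovulated values spanned 0.17, and the gap between the groups was 1.71, the widest of the 3 genes. Means were 4.91 ± 0.09 in the superovulated group and 2.71 ± 0.41 in the synchronized group (SD, n = 3 each), a difference of 2.21 with a 95% interval of 1.64 to 2.77. All synchronized values were in the range of background: DAB2 was brighter than 5.73%, 39.45% and 74.62% of probe sets on synchronized arrays 1 to 3, after 96.75%, 96.62% and 95.64% on superovulated arrays 1 to 3. The 4.62-fold difference is therefore one between a measured signal and a signal near background, and its size is uncertain.

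The DAB2 call depended on the arrays and on the processing. It held without synchronized array 3, with a difference of 2.42 and adjusted p = 0.0356, where 0.183% of probe sets were called higher. It was lost without superovulated arrays 1, 2 and 3 in turn (adjusted p = 0.125, 0.156 and 0.130) and without synchronized array 1 (adjusted p = 0.0607) or 2 (adjusted p = 0.0933), while the difference stayed between 2.01 and 2.24. The other DAB2 probe set read 2.98, 2.97 and 2.91 on the superovulated arrays, against 3.09, 2.95 and 3.20 on the synchronized arrays. Its groups overlapped near background, with a difference of -0.13 (95% interval -0.31 to 0.05, limma adjusted p = 0.636).

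FN1, fibronectin, was likewise bright on one of its probe sets. The values were 5.82, 5.94 and 5.45 on superovulated arrays 1 to 3, against 3.37, 2.78 and 4.37 on synchronized arrays 1 to 3. The synchronized arrays spread over 1.59, the most of the 3 genes, and the lowest superovulated array was 1.08 above the highest synchronized array. Means were 5.74 ± 0.26 in the superovulated group and 3.51 ± 0.80 in the synchronized group (SD, n = 3 each). The difference of 2.23 had a 95% interval of 1.10 to 3.36. As for DAB2, the synchronized mean is near background and the size of the difference is uncertain. On synchronized array 2 FN1 was brighter than 51.48% of probe sets, which is mid-background, while on synchronized array 3 it was brighter than 96.64%.

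The dimmer FN1 probe set read 2.67, 2.66 and 2.57 on the superovulated arrays, against 2.67, 2.65 and 2.77 on the synchronized arrays. These values lie near background in both groups, and the difference was -0.06 (95% interval -0.18 to 0.06, limma adjusted p = 0.636). For DAB2 and FN1 the higher signal was thus seen on 1 of 2 probe sets. Averaging the probe sets of each gene gave differences of 1.04 for DAB2 (adjusted p = 0.0512) and 1.08 for FN1 (adjusted p = 0.217). GATA6 has no other probe set to compare.

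**Figure D1:**
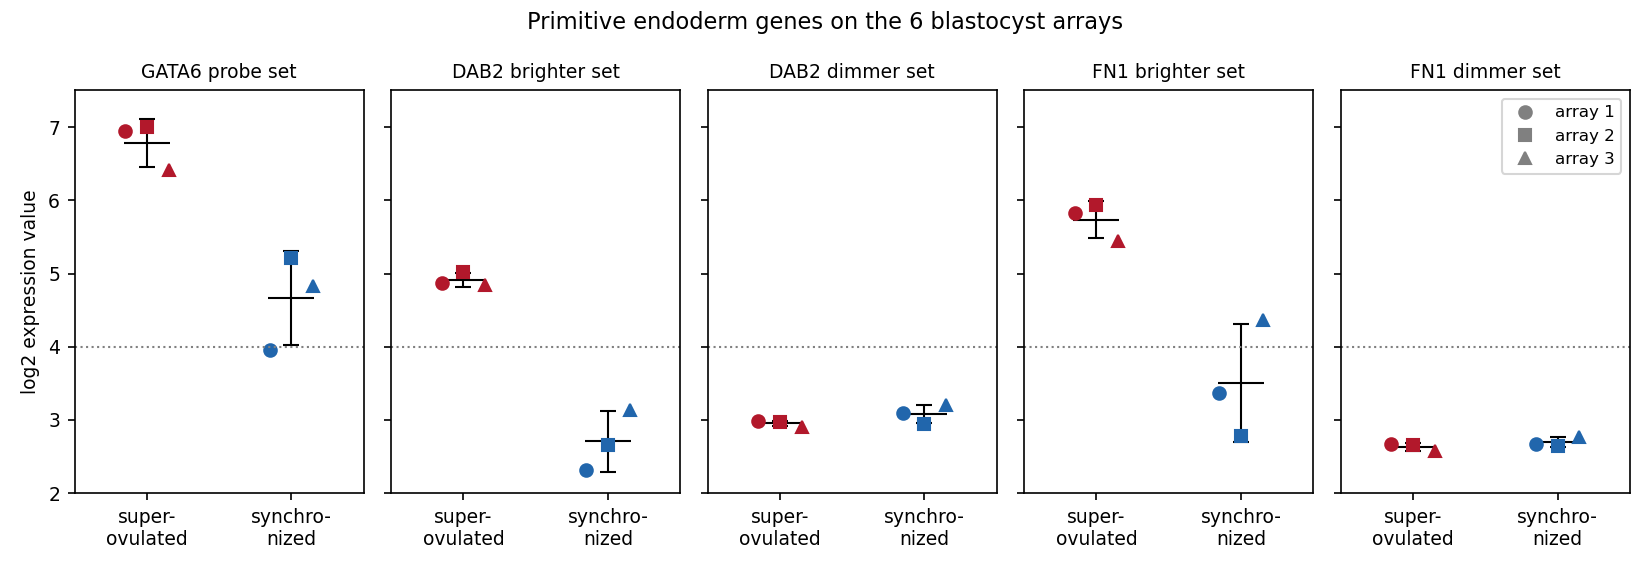
Log2 expression values (vertical axis) of the 5 probe sets of GATA6, DAB2 and FN1 in the superovulated group (red, left) and the synchronized group (blue, right). Marker shapes give the array number, black lines the mean ± SD of 3 arrays, and the dotted line log2 4; the GATA6 set and the brighter DAB2 and FN1 sets separate the groups by 1.20, 1.71 and 1.08, while the dimmer sets overlap near background.

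The 3 genes did not rank the synchronized arrays in the same way. GATA6 was highest on synchronized array 2 (5.21), where FN1 was lowest (2.78), and DAB2 and FN1 were both highest on synchronized array 3. The gap between GATA6 and FN1 within an array was 1.12, 1.06 and 0.96 on superovulated arrays 1 to 3, against 0.58, 2.43 and 0.46 on synchronized arrays 1 to 3. On average the change in these gaps between the groups was -0.09 for GATA6 against DAB2, -0.11 for GATA6 against FN1 and -0.02 for DAB2 against FN1, with exact permutation p = 0.8, 1 and 1 (two-sided, n = 3 each, smallest possible p = 0.1). With 3 arrays per group this test cannot pass at 0.05, so these values do not show that the 3 genes responded alike. Pearson's r over all 6 arrays, which mainly reflects the 2 groups, was 0.955 for GATA6 with DAB2, 0.854 for GATA6 with FN1 and 0.955 for DAB2 with FN1.

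The labels call the material blastocysts, and the label primitive endoderm was checked against a wider list of that lineage. Of 25 listed genes 17 had a probe set. Among the 14 apart from GATA6, DAB2 and FN1, 0 passed in either direction in limma (1 at an unadjusted p below 0.05), 0 had a mean above log2 4, and the median difference was -0.04, against -0.02 over all 9155 named genes, of which 1.30% were called higher and 0.0218% lower. Over all 9155 named genes, 918 had an unadjusted limma p below 0.05, which is the background for such counts in every list here. The arrays of the groups were separate in 1 of these 14, LAMC1, which was lower by 0.06 in the superovulated group and lay near background; over all named genes 9.06% had every superovulated array above and 7.86% every superovulated array below the synchronized arrays. GATA6 and FN1 were the only measured list genes with a mean above log2 4 over the 6 arrays, with PDGFRA at 3.90 and DAB2 at 3.81 below it. The 3 are called by their gene names in what follows.

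GATA4, the related transcription factor of primitive endoderm, read 2.56, 2.56 and 2.74 on the superovulated arrays, against 2.62, 3.28 and 2.57 on the synchronized arrays. HNF4A, a nuclear receptor of visceral endoderm, read 2.95, 2.95 and 2.89, against 3.02, 2.92 and 3.07 on the synchronized arrays. Both were near background on all arrays, so neither gave a usable level. CUBN, the cubilin receptor that takes up cargo with DAB2 in the mouse visceral endoderm, and the matrix gene LAMB1 differed by -0.01 and -0.03, also near background. P4HA1, a prolyl hydroxylase of collagen, was the other list gene with a group mean above log2 4: it read 2.39, 2.57 and 4.16 on the superovulated arrays, against 2.70, 5.46 and 3.87 on the synchronized arrays, and its groups overlapped (difference -0.97, limma adjusted p = 0.636). PDGFRA, a receptor marking primitive endoderm in the mouse and chosen here after its values were seen, read 3.42, 3.23 and 5.15, against 3.71, 4.47 and 3.41 on the synchronized arrays. SOX17, SOX7, FOXA2, LAMA1, COL4A2, LRP2 and AMN had no probe set under those symbols.

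**Figure D2:**
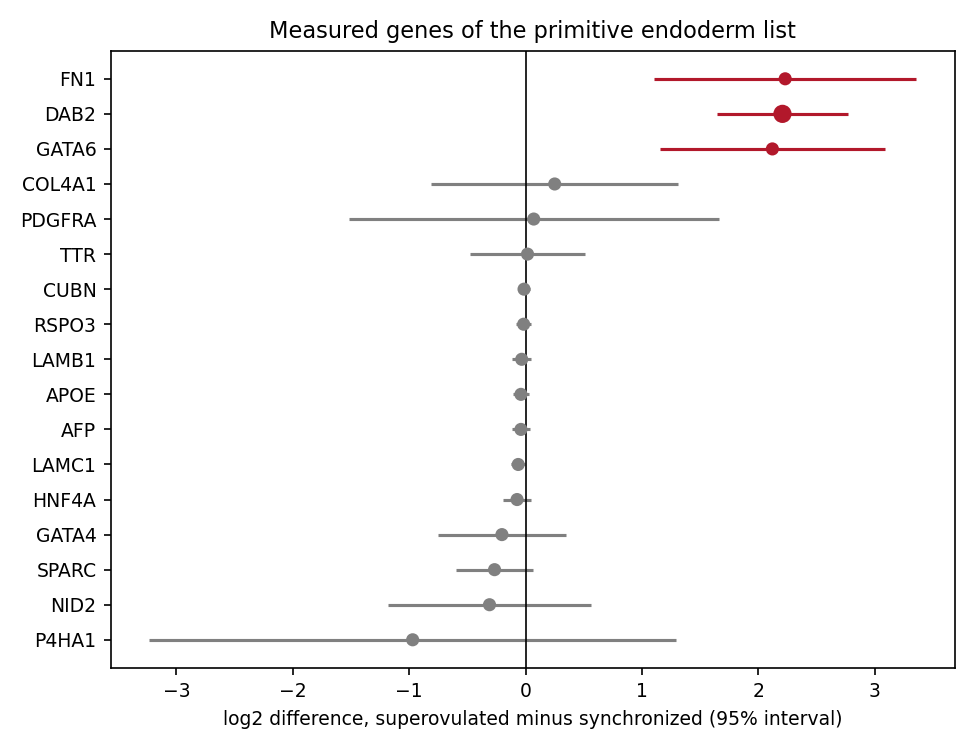
Log2 difference, superovulated minus synchronized, with its 95% interval (horizontal axis) for the 17 measured genes of the primitive endoderm list, each on its brightest probe set; GATA6, DAB2 and FN1 are red and the large point marks an adjusted p below 0.05. These 3 genes lie between 2.12 and 2.23, and the other 14 lie between -0.97 and 0.25.

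Genes that work with DAB2 in receptor endocytosis included 1 rise among 15 measured genes, against 1.30% of all named genes. CLTA, the clathrin light chain A, read 8.13, 8.38 and 8.03 on the superovulated arrays, against 5.36, 5.43 and 5.59 on the synchronized arrays. The groups were far apart relative to their spread, with a difference of 2.72 (limma adjusted p = 0.00941). PICALM, a clathrin assembly protein, differed by 1.83 (adjusted p = 0.257) and AP2M1, a subunit of the AP2 adaptor that binds DAB2, by 1.09 (adjusted p = 0.296); neither passed. ARRB1, an arrestin that recruits receptors to clathrin, differed by 0.97 (adjusted p = 0.636). The superovulated arrays lay above the synchronized ones in CLTA, PICALM, AP2M1 and ARRB1, 4 of the 15, against 9.06% of all named genes. CLTA, PICALM and ARRB1 were bright by the 6-array mean and AP2M1 was just below, at 3.995. Of all bright probe sets 42.5% had that separation, so it was frequent at this brightness. CLTC, the clathrin heavy chain, read 3.68, 3.54 and 4.91 on the superovulated arrays, against 2.72, 5.32 and 3.01 on the synchronized arrays, and overlapped. Of the 15 measured genes of 23 listed, 0 fell, the median difference was -0.01, and 3 had a mean above log2 4.

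In the fibronectin matrix and integrin list 0 of 23 measured genes passed in limma (0 at an unadjusted p below 0.05), with a median difference of -0.03. ITGB5, an integrin beta subunit of a receptor that binds vitronectin, read 9.51, 9.72 and 9.81 on the superovulated arrays, against 7.23, 9.26 and 8.43 on the synchronized arrays (difference 1.37, limma adjusted p = 0.636). ITGB1, the beta subunit of the main fibronectin receptor, read 6.77, 6.92 and 8.67, against 4.99, 8.96 and 7.00 on the synchronized arrays. Both receptors were bright, but ITGB1 varied within the groups as much as between them, and superovulated array 3 and synchronized array 2 were its highest. FERMT2, an integrin activator, and THBS1, thrombospondin, differed by 1.19 and -0.42 with overlapping groups (adjusted p = 0.636 and 0.760). The other probe set of FERMT2 differed by -0.48 and that of ITGB5 by -0.06, the latter near background.

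The FGF and MAP kinase list, the pathway that favours primitive endoderm in the mouse, had 0 calls in limma among 15 measured genes (0 at an unadjusted p below 0.05) and a median difference of -0.03. NRAS, a RAS GTPase, read 4.65, 4.80 and 5.70 on the superovulated arrays, against 4.77, 5.73 and 4.84 on the synchronized arrays. FGF2 was near background except on synchronized array 2, where it read 7.04, and superovulated array 3, at 4.47. GATA1, GATA4 and GATA5, the measured members of the list of other GATA factors, stayed below log2 4 on every array. GATA5 came closest, at 3.93 on synchronized array 1. In limma 0 genes of that list passed, also at an unadjusted p below 0.05 (median difference -0.20).

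Among genes of the other blastocyst lineages, KRT18 rose by 3.89. This keratin of the trophectoderm epithelium had means of 7.94 in the superovulated group and 4.04 in the synchronized group (limma adjusted p = 0.0410). The within-array gaps of GATA6, DAB2 and FN1 over KRT18 changed by -1.77, -1.69 and -1.66 on the log2 scale, superovulated minus synchronized. KLF4, a pluripotency factor, read 4.83, 5.53 and 4.94 on the superovulated arrays, against 4.08, 3.69 and 3.58 on the synchronized arrays. Its difference of 1.32 did not pass (adjusted p = 0.150), and the gap of GATA6, DAB2 and FN1 over KLF4 changed by 0.80, 0.89 and 0.91. The exact permutation p was 0.1, the smallest possible, for each of the 3 genes against KRT18 and between 0.2 and 0.3 against KLF4 (n = 3 each). Adjusted over the 18 gaps compared, the p against KRT18 was 0.18. With 3 arrays per group this test could not pass at 0.05. KRT18 itself rose more than each of the 3 genes, so the mean gaps over it had to fall. The trophectoderm list held 1 rise among 17 measured genes, KRT18, against 1.30% of all named genes (median difference -0.01). Its gene PTGS2, a prostaglandin synthase, read 4.74, 4.47 and 3.88 on the superovulated arrays, against 2.86, 3.16 and 3.21 on the synchronized arrays, and its difference of 1.29 did not pass (adjusted p = 0.175). The other PTGS2 probe sets differed by -0.02 and -0.01, near background. ATP1B1, a sodium pump subunit, differed by -0.32 with overlapping groups (adjusted p = 0.772). Calls in the inner cell mass list numbered 0 among 3 in limma (2 at an unadjusted p below 0.05, median 0.81). Besides KLF4 the list held POU5F1 and SOX2. POU5F1 read 3.54, 3.43 and 3.24 on the superovulated arrays, against 2.65, 2.73 and 2.40 on the synchronized arrays. Its difference of 0.81 lay below log2 4 and did not pass (limma adjusted p = 0.0886). SOX2 was near background and differed by -0.01. CDX2, GATA3 and NANOG had no probe set under those symbols, so neither the share of trophectoderm nor that of epiblast could be followed with them. In whole embryos fewer cells of a type and less RNA per cell cannot be told apart.

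The control probe sets for the 3′ ends of EIF4E and GAPDH moved with the 3 genes. The control probe set for the 3′ end of EIF4E, a translation initiation factor, read 8.16, 8.52 and 8.31 on the superovulated arrays, against 3.71, 6.23 and 5.92 on the synchronized arrays. That for the 3′ end of GAPDH, a glycolytic enzyme, read 8.67, 8.80 and 9.14, against 7.20, 8.35 and 8.22 on the synchronized arrays. Both were higher on every superovulated array and lowest on synchronized array 1, where GATA6 and DAB2 were lowest too. The control for the 5′ end of GAPDH was near background on all arrays, with means of 2.76 in the superovulated group and 2.62 in the synchronized group. The 18 bacterial hybridization control probe sets went the other way, at 12.67 ± 0.02 in the superovulated group and 13.20 ± 0.32 in the synchronized group (SD, n = 3 each; exact permutation p = 0.1, two-sided).

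Between 1457 and 1894 probe sets exceeded log2 4 on a superovulated array, against 973 to 1850 on a synchronized array, and the bright probe sets as a body had a median difference of 0.59. Differences at least as large as those of GATA6, DAB2 and FN1 were found in 0.704%, 0.612% and 0.587% of all tested probe sets. Among bright probe sets the shares were 11.5%, 10.2% and 9.89%, although DAB2 itself, with a 6-array mean of 3.81, was not among them. After each array was centred on its bright probe sets, the differences were 1.50, 1.58 and 1.61 and all 3 passed in limma (adjusted p = 0.00234, 0.000927 and 0.000716), where 1.17% of probe sets were called higher. This centring lowers every difference by the same amount, also for probe sets near background. The other DAB2 and FN1 probe sets then differed by -0.75 and -0.685. Probe sets called lower numbered 366, against 5 as deposited, so the calls depend on this setting. Against the 3′ control of GAPDH the gaps of GATA6, DAB2 and FN1 changed by 1.17, 1.26 and 1.28, and against that of EIF4E by -0.92, -0.84 and -0.81. Exact permutation p was 0.1 for each of the 3 genes against GAPDH, and 0.1, 0.4 and 0.5 against EIF4E (n = 3 each). The part of overall signal in the 3 differences was not tested.

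**Figure D3:**
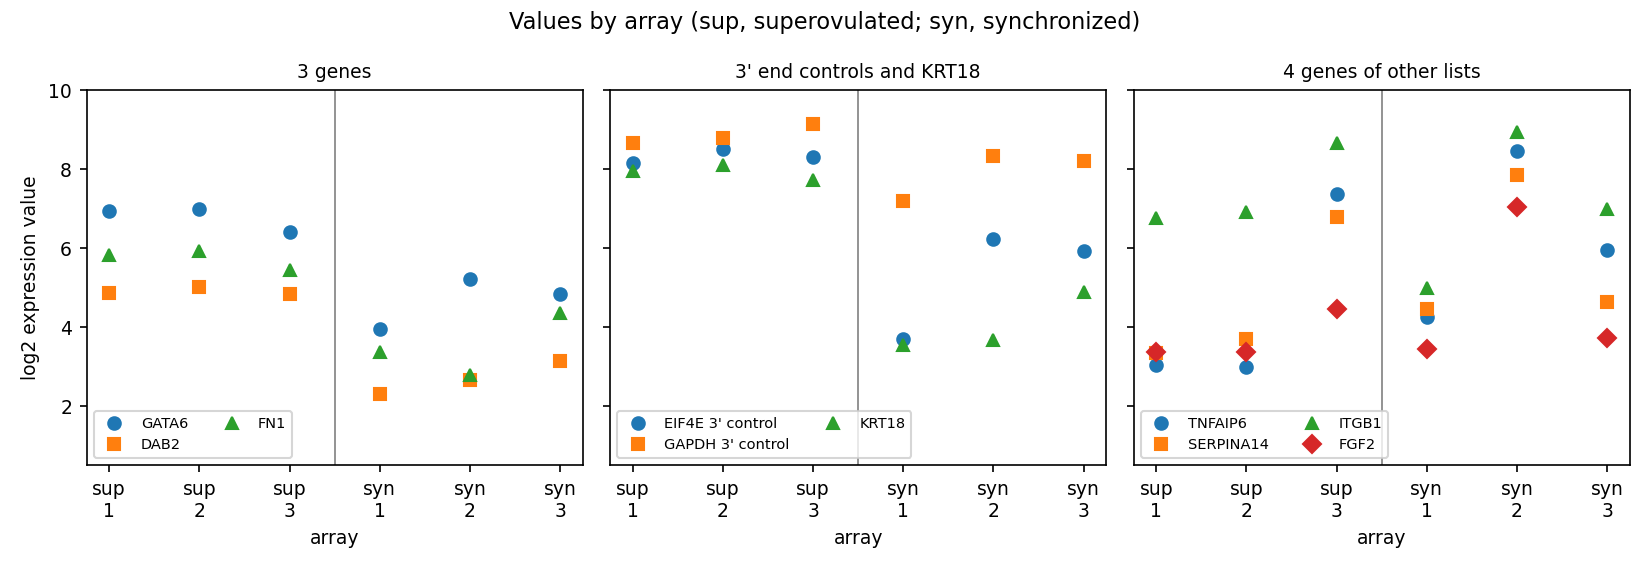
Log2 expression values (vertical axis) on each superovulated (sup) and synchronized (syn) array for GATA6, DAB2 and FN1 (left), the 3′ end controls of EIF4E and GAPDH with KRT18 (middle), and TNFAIP6, SERPINA14, ITGB1 and FGF2 from other lists (right). The left and middle panels are higher on all superovulated arrays, while the right panel peaks on superovulated array 3 and synchronized array 2.

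Markers of other cells that could accompany an embryo were mostly near background. Of 19 measured cumulus and granulosa markers 1 rose, against 1.30% of all named genes. It was COL1A2, at 3.76, 3.61 and 3.60 on the superovulated arrays against 3.01, 3.06 and 2.93 on the synchronized arrays, all near background. Its difference of 0.66 was on 1 probe set, and the other differed by 0.04 (limma adjusted p = 0.776). After centring on bright probe sets, which lowers every difference by the same amount, 0.04 was left of the 0.66 (limma adjusted p = 0.926). That loss is therefore not particular to COL1A2. The list mean per array was 3.08 to 3.50 in the superovulated group and 3.29 to 3.77 in the synchronized group, and 2 genes had a mean above log2 4. INHA, the inhibin alpha subunit made by granulosa cells, read 4.79, 4.85 and 6.64 on the superovulated arrays, against 4.85, 6.79 and 4.87 on the synchronized arrays, above log2 4 on all of them and with overlapping groups (difference -0.08). In all, 8 of the 19 exceeded log2 4 on at least 1 array, while FSHR, CYP19A1 and AMH, further granulosa genes, did so on none. TNFAIP6 read 3.05, 2.99 and 7.38 on the superovulated arrays, against 4.25, 8.47 and 5.96 on the synchronized arrays. It ranked the synchronized arrays as GATA6 did. Among the superovulated arrays it was highest on array 3, where each of the 3 genes was lowest.

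Of 13 measured oviduct and uterus markers 1 rose, against the same 1.30%, the complement gene C3, by 2.56 (limma adjusted p = 0.0373), with its other probe sets at -0.19 and 0.01. EPCAM, an epithelial adhesion protein that embryos make too, differed by 2.38 (adjusted p = 0.0576). The list mean was 3.29 to 3.56 in the superovulated group and 3.05 to 3.29 in the synchronized group. OVGP1, the defining oviductal glycoprotein, stayed near background on all arrays, whereas SERPINA14, a uterine serpin, read 3.34, 3.71 and 6.79 on the superovulated arrays, against 4.45, 7.87 and 4.65 on the synchronized arrays. Fibroblast markers, which matter for FN1 because stromal cells make it, had 0 of 14 genes with a mean above log2 4. Their list means were 2.96 to 2.98 in the superovulated group and 3.02 to 3.10 in the synchronized group. COL1A2 was again the 1 rise among the 14, against 1.30% of all named genes. The blood and immune list had 0 calls in limma among 17 genes (2 at an unadjusted p below 0.05) and list means of 2.68 to 2.74 in the superovulated group and 2.64 to 2.82 in the synchronized group. The part of such cells in the 3 differences was not tested.

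Many genes shared the pattern of the 3 genes over the 6 arrays. Among 686 named genes with a range of at least 2 log2 units, 222 correlated with GATA6, 200 with DAB2 and 112 with FN1 at Pearson's r of at least 0.9. Those most like GATA6 were RPL36A, a ribosomal protein (r = 0.996), ATP5MG, an ATP synthase subunit, LNPK, which shapes the endoplasmic reticulum, the splicing regulator HNRNPF and the histone chaperone NAP1L1. RPL36A read 8.49, 8.69 and 8.14 on the superovulated arrays, against 4.77, 6.63 and 6.12 on the synchronized arrays, with synchronized array 2 above array 3 as for GATA6.

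Most like DAB2 were PRKAR2A, a regulatory subunit of protein kinase A (r = 0.999), the chaperone HSPA14, the repressor ZBTB18, PBDC1 and UQCR11 of respiratory complex III. PRKAR2A read 5.86, 6.08 and 5.87 on the superovulated arrays, against 3.15, 3.70 and 4.06 on the synchronized arrays. Most like FN1 were ACTB, cytoplasmic beta-actin (r = 0.995), LRPAP1, a chaperone of LDL receptor family proteins, the spliceosome protein SNRNP40, the small heat shock protein HSPB1 and the cochaperone PTGES3. ACTB read 10.54, 10.70 and 10.54 on the superovulated arrays, against 8.56, 7.91 and 9.39 on the synchronized arrays, with synchronized array 2 lowest as for FN1. The lists of 5 most alike genes had no gene in common, and the 6 points of each correlation share their arrays and their groups.

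Centring each array on the median of all probe sets left the DAB2 call in place, at 2.23 with adjusted p = 0.0442, where 0.608% of probe sets were called higher. The direction was the same for GATA6, DAB2 and FN1 under every alternative that was run, and the call was not. GATA6 and FN1 passed in limma when only bright probe sets were tested (adjusted p = 0.0113 and 0.0144), where 29.4% of probe sets were called higher. FN1 counted as bright only through its superovulated mean of 5.74, as its synchronized mean was 3.51, so its call there adds no support. GATA6 and FN1 also passed with limma's array weights (adjusted p = 0.0184 and 0.0217), where 1.90% were called higher. With superovulated array 3 and synchronized array 2 both left out the differences were 2.58 for GATA6, 2.21 for DAB2 and 2.01 for FN1, and none passed (adjusted p = 0.276, 0.301 and 0.380).

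**Figure D4:**
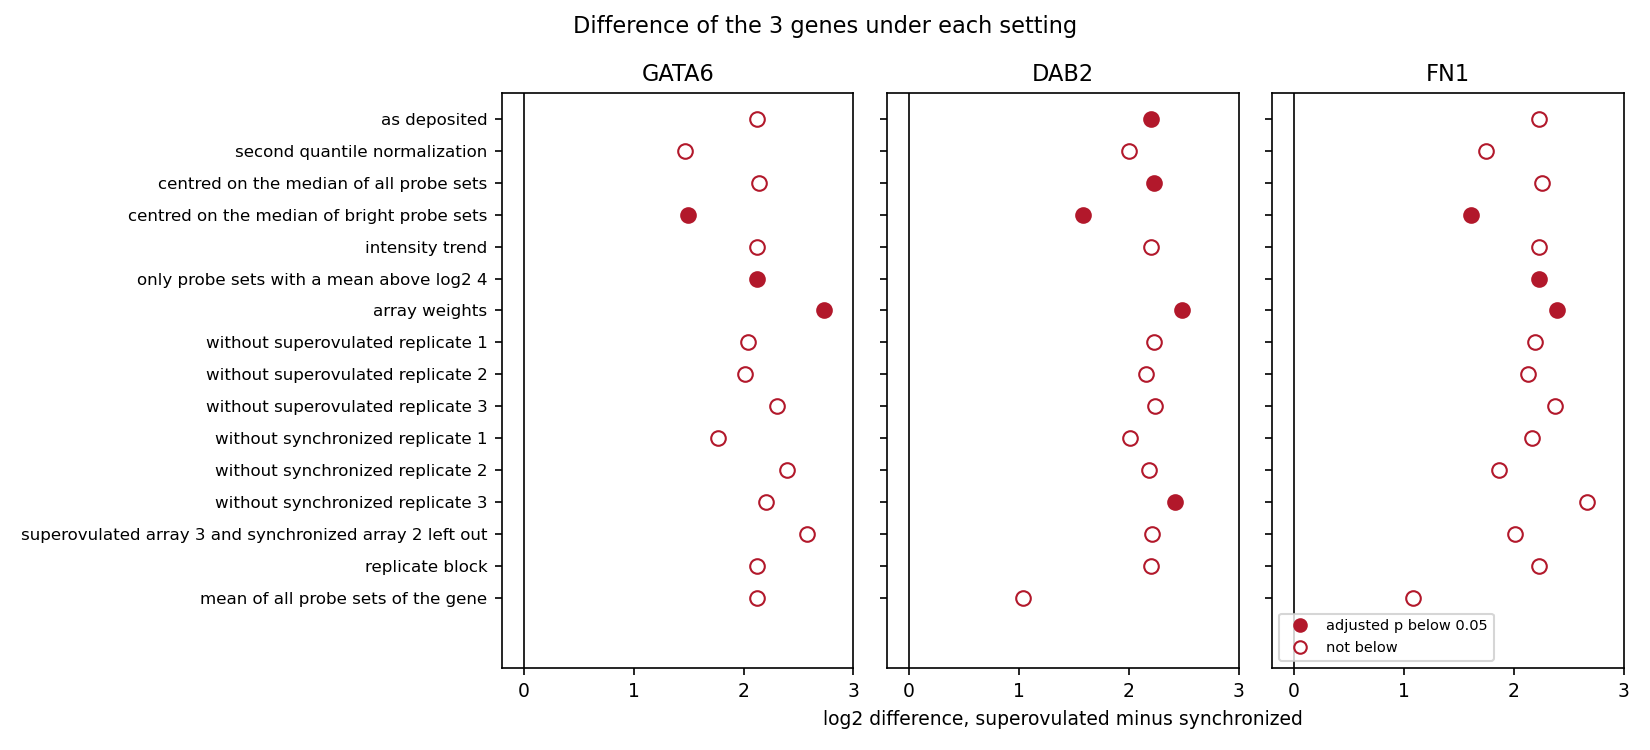
Log2 difference, superovulated minus synchronized (horizontal axis), of GATA6, DAB2 and FN1 with the values as deposited and under each alternative (rows); filled points have an adjusted p below 0.05 in limma. GATA6 stays between 1.47 and 2.73, DAB2 between 1.04 and 2.49 and FN1 between 1.08 and 2.66; DAB2 has no point where only bright probe sets were tested because its mean is below log2 4.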

How the data were processed

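Total RNA of day-7 bovine blastocysts was isolated with a column kit for small samples and labelled with biotin in a second in vitro transcription, per the labels' protocols. The authors deposited log2 expression values for the 6 Affymetrix bovine arrays, made with GCRMA per the submitters' processing notes; its version, and whether the arrays were normalized together, are not given in the sources used here. GCRMA compresses values near background. The 112 control probe sets were set aside, leaving 24016, and the deposited values were used without further scaling. Symbols came from the platform annotation held by GEO: 13292 tested probe sets had 1 symbol, 86 several and 10638 none. All 5 probe sets of the 3 genes matched the ARS-UCD2.0 gene table by gene identifier, with 0 symbols changed.

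The superovulated minus synchronized difference was tested in limma 3.58.1 (R 4.3.3), two-sided, with Benjamini-Hochberg adjustment over all probe sets. The procedure was tested on simulated data. The brightest probe set stood for a gene. From each list, genes that passed and up to 4 others with the smallest p and a group mean above log2 4 were named, with further genes named for their role. For likeness the 5 genes with the highest Pearson's r were named. Single values and gaps were compared by exact permutation. The genes, the lists and the gaps were chosen with earlier results of these data known. The 3 arrays per group limit the precision.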

Additional observations from a re-analysis of the deposited data

Results flagged for a closer look

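The control probe set for the 3′ end of EIF4E, which the comparison of genes does not use, carried a signal above that of the synchronized arrays. It was higher in the superovulated group by 3.04 on the log2 scale, with 8.16, 8.52 and 8.31 on the superovulated arrays against 3.71, 6.23 and 5.92 on the synchronized arrays. It was the only control probe set with all superovulated arrays at least 1 log2 unit above all synchronized arrays.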

How the results depend on the processing

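DAB2 lost its call after a second quantile normalization (2.01), with an intensity trend (2.21, adjusted p = 0.0504), without superovulated array 3 and synchronized array 2 together (2.21), on the mean of its probe sets (1.04) and with the replicate number as a block (2.21, adjusted p = 0.205). GATA6 and FN1 gained a call after centring on bright probe sets (1.50 and 1.61), among bright probe sets alone (2.12 and 2.23) and with array weights (2.73 and 2.39). FN1 is among the bright probe sets only through its superovulated arrays, so that call adds no support. Leaving out each array in turn gave differences of 1.76 to 2.39 for GATA6, 2.01 to 2.42 for DAB2 and 1.87 to 2.66 for FN1. The number of probe sets called was 172, and 26 to 137 with an array left out. It was 28 after quantile normalization, 647 after centring on bright probe sets (281 higher and 366 lower, against 167 and 5 as deposited), 50 with an intensity trend, 441 among bright probe sets, 515 with array weights, 1 without both of the arrays named above and 0 with the replicate block. The cause was not tested. Deviations of same-numbered arrays correlated at 0.542, -0.399 and -0.405, and those of superovulated array 3 with synchronized array 2 at 0.688. With 3 arrays per group these values cannot decide whether the numbers pair the samples. DAB2 could not be fitted among bright probe sets. Of the other named calls, CLTA kept its call in 10 of 14 alternatives, KRT18 in 5 of 14, C3 in 4 of 14 and COL1A2 in 2 of 13.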
